A study of Homo sapiens with 24 samples.

Results

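The 10 genes described here are parts of the Wnt pathway: the ligands WNT4 and WNT5A, the secreted antagonist DKK1, the effector CTNNB1 (beta-catenin), the DNA-binding partners TCF7L2, TCF7L1, TCF7 and LEF1, and the feedback inhibitors AXIN2 and NKD1. They were taken by symbol from the deposited table of normalised counts, where they are 10 of 57820 rows, and all 10 were among the 17860 genes with a value of at least 10 in at least 3 libraries that entered the tests. They had been chosen from the differences between YC-1 and DMSO in these same libraries. Those differences are therefore given below as descriptions, with standard errors and no p-values. Where such a difference is called past the threshold for the adjusted p, or short of it, the call is a description too. Such calls, with all libraries or in an alternative fit, follow the choice of genes and are not tests of these differences. The comparisons between DMSO libraries are other contrasts and are tested, although the same DMSO libraries stand on the reference side of the YC-1 differences.

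The libraries come from RBE and SNU1079, human cholangiocarcinoma (bile duct cancer) cell lines, in a study of compounds that become DNA- and protein-alkylating agents once a sulfotransferase has sulfonated them. Each line was treated with YC-1, a small molecule known for activating soluble guanylate cyclase, or with the solvent DMSO, for 16 h or 6 h, and 3 biological replicates were sequenced for each of the 8 combinations (24 libraries). Both lines, and therefore the YC-1 and the DMSO groups alike, carry mutant IDH1 and express the sulfotransferase SULT1A1 at a high level according to the labels. The labels give no YC-1 dose, and each line is 1 cell line, so a difference between RBE and SNU1079 is a difference between 2 lines. The replicates were named as biological replicates without saying what was repeated, so the p-values measure the spread between these libraries.

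In canonical Wnt signalling a secreted Wnt ligand binds a Frizzled receptor together with an LRP5 or LRP6 coreceptor, the destruction complex built on axin and APC stops marking beta-catenin for degradation, and beta-catenin enters the nucleus and joins a TCF or LEF protein on DNA. Without beta-catenin the same TCF proteins recruit Groucho/TLE corepressors and hold their targets silent. DKK1 blocks the coreceptors from outside the cell, and AXIN2 and NKD1 are switched on by the pathway and dampen it. In the liver this pathway takes part in the patterning of the lobule and in the growth of bile duct cells.

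The YC-1 libraries summed to 20430000 to 27010000 normalised counts and the DMSO libraries to 19010000 to 21580000. The files give no raw counts. The commonest low value of a library, 0.518 to 1.82, would put its depth at 12020000 to 40980000 reads if it stands for 1 read, so values of a few normalised counts rest on a few reads. All 6 cholangiocyte keratin and lineage genes examined were above 10 in every library, with summed levels of 87970 to 148400 in YC-1 libraries and 73100 to 103000 in DMSO libraries. Of 5 hepatocyte genes, 1 (SERPINA1) was above 10 in every library, and the 3 endothelial genes summed to 1.51 to 34.2 in YC-1 libraries and 2.53 to 52.0 in DMSO libraries. The 6 stromal genes summed to 69.0 to 3247 in YC-1 libraries and 60.6 to 3829 in DMSO libraries, and the 4 leukocyte genes to 0 to 62.6 in YC-1 libraries and 0 to 7.41 in DMSO libraries. The stromal range was mainly COL1A1, with group means of 1101 to 3430 in SNU1079 and 13.1 to 41.8 in RBE, while DCN and LUM were at or near 0. The high leukocyte sums were mainly CD14, which averaged 36.4 in RBE and 47.5 in SNU1079 with YC-1 at 16 h. Mitochondrial transcripts took 15.4% to 17.0% of the sum in RBE YC-1 libraries at 16 h, against 6.82% to 8.18% in all RBE DMSO libraries. In SNU1079 at 16 h they took 18.1%, 3.38% and 22.1% in YC-1 replicates 1 to 3, against 6.02% to 8.50% in all SNU1079 DMSO libraries, and their part in the results was not tested. In SNU1079 YC-1 6 h replicate 1 (mean r 0.964 with its group, the others 0.975 each) and DMSO 16 h replicate 1 (0.963, the others 0.973 and 0.975) correlated least with their groups. YC-1 16 h replicates 2 and 3 were alike by this measure (0.959 each, replicate 1 0.965), and replicate 2 was taken to stand apart for its mitochondrial share. Below, these are the 3 libraries that stood apart, and values below that lost a call or moved much without them are given both ways.

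Start-site sequences from RefSeq (GRCh38.p14) were found for 8 of the 10 genes, in 12 windows that reach from 250 bases before the annotated start to 50 bases after it, and AXIN2 and NKD1 had no entry. They were searched on both strands for the TCF/LEF core letters, which are CTTTG followed by any of AA, AT, TA and TT. No core is the reverse complement of itself or of another. Of all 35116 windows in the table, 4829 (13.8%) held at least 1 of them, and so did 3 of the 12 windows, which belong to DKK1, TCF7L2 and TCF7. The 250 bases before the start are shown for these 3 windows, with the cores in capitals, and for the outer start of TCF7L2, where no core was found, because DKK1 and TCF7L2 had the lowest YC-1 differences of the 10 genes at 16 h in RBE and TCF7 was higher with YC-1 in both lines at that time. The DKK1 window is chr10:52314031-52314280, plus strand, and its bases also lie in exons of the antisense gene PRKG1-AS1. The outer and inner TCF7L2 windows are chr10:112949997-112950246 and chr10:113126383-113126632, both on the plus strand, and the TCF7 window is an inner start at chr5:134123368-134123617, plus strand.
DKK1: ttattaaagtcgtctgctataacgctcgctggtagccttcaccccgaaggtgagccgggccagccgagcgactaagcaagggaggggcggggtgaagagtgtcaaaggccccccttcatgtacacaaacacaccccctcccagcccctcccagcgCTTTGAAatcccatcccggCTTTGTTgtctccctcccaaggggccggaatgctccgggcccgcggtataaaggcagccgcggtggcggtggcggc
TCF7L2, outer start: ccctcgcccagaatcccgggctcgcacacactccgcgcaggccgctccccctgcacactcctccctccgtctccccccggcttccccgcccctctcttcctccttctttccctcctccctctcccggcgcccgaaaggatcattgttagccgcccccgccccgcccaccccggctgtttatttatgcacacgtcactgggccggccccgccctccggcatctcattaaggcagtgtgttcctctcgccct
TCF7L2, inner start: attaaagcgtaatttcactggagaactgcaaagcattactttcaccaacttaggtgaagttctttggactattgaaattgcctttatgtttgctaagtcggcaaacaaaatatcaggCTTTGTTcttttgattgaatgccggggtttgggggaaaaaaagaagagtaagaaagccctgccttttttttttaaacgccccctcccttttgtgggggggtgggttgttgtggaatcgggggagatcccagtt
TCF7, inner start: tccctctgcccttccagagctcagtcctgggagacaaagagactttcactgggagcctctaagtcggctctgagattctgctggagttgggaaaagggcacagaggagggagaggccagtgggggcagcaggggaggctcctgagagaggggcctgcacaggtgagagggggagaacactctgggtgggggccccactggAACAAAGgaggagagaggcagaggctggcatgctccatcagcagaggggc
The DKK1 window held CTTTGAA and CTTTGTT on the gene's own strand, their first bases at -95 and -76 from the start. The inner TCF7L2 window held CTTTGTT at -133, and the TCF7 window held AACAAAG at -50, which is CTTTGTT read on the other strand. These are letter matches in a short window and not binding data.

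TCF7L2 encodes the TCF protein that is the usual partner of beta-catenin in gut and liver epithelium. In DMSO libraries it was the most abundant of the 4 TCF/LEF genes in both lines per kilobase of exon, and it was lower in every YC-1 library than in any DMSO library of the same line and time. In RBE at 16 h its normalised counts were 72.6, 55.7 and 37.4 in YC-1 replicates 1 to 3, against 601, 567 and 593 in DMSO replicates. The log2 difference was -3.44 ± 0.60 (SE; here and below YC-1 minus DMSO on log2 of the normalised count + 1). In RBE at 6 h it had 53.3, 143 and 94.5 with YC-1, against 311, 450.4 and 485 with DMSO, a difference of -2.17 ± 0.60, or -1.80 and not past the threshold without YC-1 replicate 1. The groups did not overlap at either time in RBE, and YC-1 libraries at 16 h and at 6 h overlapped each other.

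In SNU1079 TCF7L2 was lower than in RBE with either treatment. At 16 h it had 27.1, 0.807 and 11.3 with YC-1, against 186, 183 and 164 with DMSO, a log2 difference of -4.39 ± 0.60. The value of 0.807 is YC-1 replicate 2, the library with the low mitochondrial share, and the difference was -3.26 without that library and -3.23 without all 3 libraries that stood apart. At 6 h it had 34.002, 18.4 and 37.2 with YC-1, against 183, 175 and 153 with DMSO, a difference of -2.53 ± 0.60 that just missed the threshold when the 12 SNU1079 libraries were fitted alone. Ordered by mean, the 8 groups ran from RBE DMSO 16 h (587) through RBE DMSO 6 h (416), SNU1079 DMSO 16 h (178), SNU1079 DMSO 6 h (170.2), RBE YC-1 6 h (97.0), RBE YC-1 16 h (55.2) and SNU1079 YC-1 6 h (29.9) to SNU1079 YC-1 16 h (13.1). Neighbours overlapped between the times of SNU1079 DMSO, of RBE YC-1 and of SNU1079 YC-1, and the other neighbours were separate. The gene spans 217.4 kb, chr10:112950250-113167678 on the plus strand, in the GENCODE 29 annotation of GRCh38, whose identifiers the deposited table uses.

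TCF7L1 and TCF7 had the opposite sign at 16 h. TCF7L1, known mainly as a repressor of Wnt targets in stem cells, was low throughout. It entered the tests on 9 libraries with values of at least 10, all of them YC-1 libraries except RBE DMSO 16 h replicate 1. In SNU1079 at 16 h it had 6.22, 57.6 and 20.9 normalised counts with YC-1, against 1.62, 1.41 and 0 with DMSO, a log2 difference of 3.51 ± 0.65. The spread among the YC-1 libraries was wide, and the highest of them was again replicate 2; without it the difference was 2.76. In SNU1079 at 6 h it had 24.2, 15.3 and 28.8 with YC-1, against 5.71, 0.655 and 5.89 with DMSO, a difference of 2.44 ± 0.65, or 1.76 and not past the threshold without DMSO replicate 2.

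In RBE TCF7L1 lay above DMSO at 16 h and below it at 6 h. At 16 h it had 32.1, 12.3 and 14.6 with YC-1, against 10.7, 6.95 and 6.89 with DMSO, a log2 difference of 1.08 ± 0.65 that was not past the threshold and that shrank to 0.24 when the libraries were scaled on ribosomal protein genes. At 6 h it had 1.32, 2.36 and 4.83 with YC-1, against 9.29, 5.63 and 5.60 with DMSO, a difference of -1.10 ± 0.65. The groups did not overlap at either time although neither difference was past the threshold. By mean the order ran from SNU1079 YC-1 16 h (28.2), SNU1079 YC-1 6 h (22.8) and RBE YC-1 16 h (19.7), which overlapped, to the other 5 groups at 8.18 or less, and the gap after RBE YC-1 16 h was the only one between neighbours that did not overlap. TCF7L1 spans 177.0 kb, chr2:85133410-85310388 on the plus strand.

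TCF7 encodes TCF1, best known from T cells and itself a Wnt target. RBE libraries at 16 h had 52.4, 44.9 and 75.4 normalised counts with YC-1, against 15.4, 24.2 and 7.43 with DMSO, a log2 difference of 1.91 ± 0.43, or 1.04 and just short of the threshold on the ribosomal scale. In RBE at 6 h it had 11.4, 11.5 and 14.0 with YC-1, against 20.8, 13.05 and 23.4 with DMSO, a difference of -0.56 ± 0.43. The RBE groups were separate at 16 h and overlapped at 6 h.

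In SNU1079 TCF7 was higher with YC-1 at both times. At 16 h it had 41.8, 20.4 and 49.1 with YC-1, against 2.93, 7.40 and 6.48 with DMSO, a log2 difference of 2.51 ± 0.43. Its values at 6 h were 12.6, 8.04 and 7.24 with YC-1, against 0.949, 0.537 and 2.10 with DMSO, a difference of 2.26 ± 0.43. Its exons (chr5:134114711-134151865, plus strand) overlap those of the antisense gene SKP1, whose group means were 5033 to 8457 normalised counts. The counting tool and its strand setting are not stated in the labels, so reads of SKP1 counted to TCF7 cannot be told apart from its own. At 16 h SKP1 averaged 8457 ± 725 with YC-1 and 6709 ± 319.6 with DMSO in RBE, and 6059 ± 1044 with YC-1 and 5457 ± 777 with DMSO in SNU1079 (SD, n = 3 each). Its part in the TCF7 values was not tested.

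LEF1, which is silent in most adult epithelia and reappears in several cancers, was listed at 0 in all 12 SNU1079 libraries. RBE libraries at 16 h had 2.04, 1.67 and 7.52 normalised counts with YC-1, against 11.7, 19.6 and 20.5 with DMSO, a log2 difference of -2.12 ± 0.40 with no overlap. In RBE at 6 h it had 14.8, 15.5 and 10.8 with YC-1, against 19.1, 12.4 and 18.98 with DMSO, a difference of -0.27 ± 0.40, and the groups overlapped. It entered the tests on 9 RBE libraries with values of at least 10. LEF1 lies at chr4:108047545-108168956 on the minus strand (121.4 kb).

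**Figure D1:**
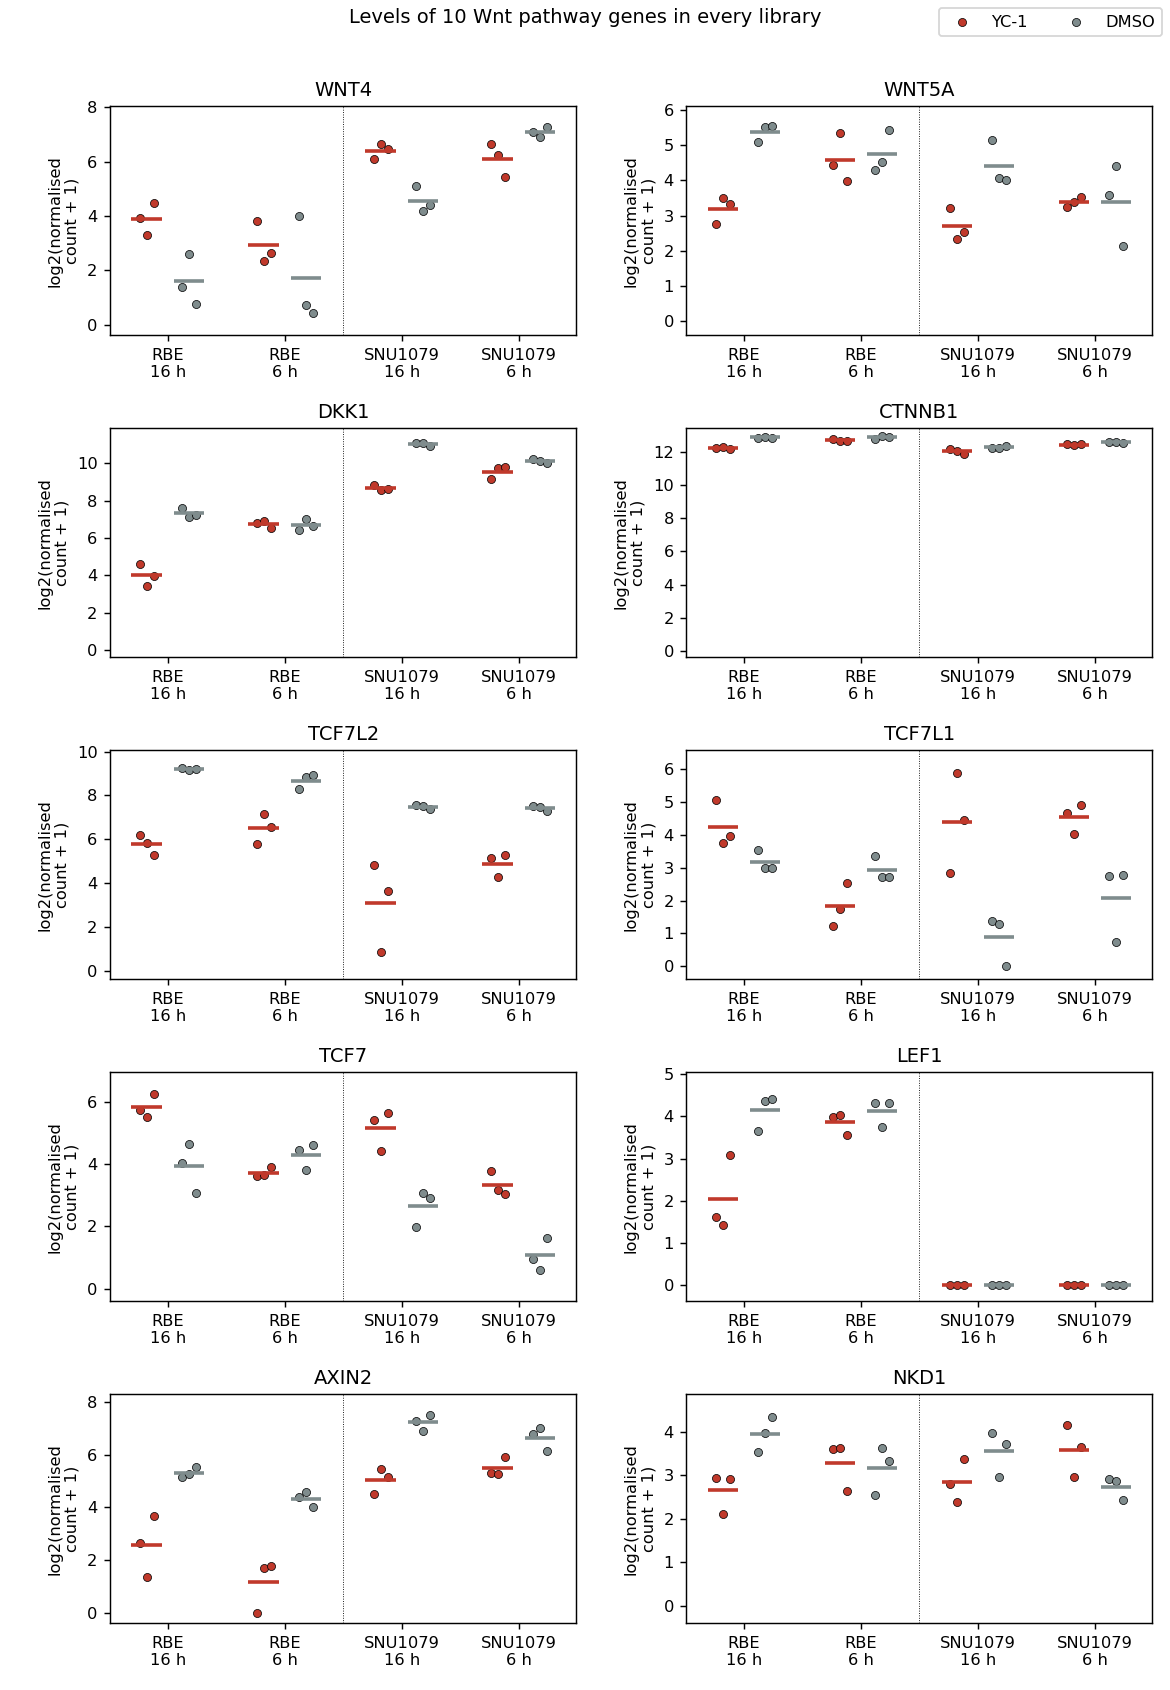
Normalised counts of the 10 genes in each library, on a log axis of value + 1. Within each panel the lines run from RBE to SNU1079, the times from 16 h to 6 h and the treatments from YC-1 to DMSO, with 3 libraries a group. TCF7L2 and AXIN2 sit lower with YC-1 in all 4 pairs of groups, DKK1 in all pairs but RBE at 6 h, and LEF1 is at 0 throughout SNU1079.

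DKK1, which binds LRP5 and LRP6 and keeps Wnt ligands from using them, differed with YC-1 mainly at the later time. In RBE at 16 h it had 23.5, 9.75 and 14.9 normalised counts with YC-1, against 198, 138 and 149.9 with DMSO, a log2 difference of -3.32 ± 0.23. In RBE at 6 h it had 112, 119.6 and 92.9 with YC-1, against 85.9, 129.8 and 100.3 with DMSO, a difference of 0.05 ± 0.23. The RBE groups overlapped at 6 h and stood far apart at 16 h.

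SNU1079 held far more DKK1 transcript. At 16 h it had 466, 379.6 and 396 normalised counts with YC-1, against 2185, 2152 and 1988 with DMSO, a log2 difference of -2.35 ± 0.23. Its values at 6 h were 574, 855 and 880.3 with YC-1, against 1193, 1122 and 1039.6 with DMSO, a difference of -0.56 ± 0.23 without overlap, or -0.36 without the 3 libraries that stood apart. The YC-1 difference at 16 h minus that at 6 h was -3.37 ± 0.33 in RBE and -1.79 ± 0.33 in SNU1079. Ordered by mean, all 4 SNU1079 groups (2108, 1118, 769.8 and 414 for DMSO 16 h, DMSO 6 h, YC-1 6 h and YC-1 16 h) stood above the RBE groups (162, 108, 105 and 16.1 for DMSO 16 h, YC-1 6 h, DMSO 6 h and YC-1 16 h). The only neighbours that overlapped were the RBE groups at 6 h. DKK1 is short, 3.7 kb at chr10:52314296-52318042 on the plus strand, and its antisense neighbour PRKG1-AS1 averaged 0.305 to 4.51 in the 8 groups.

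CTNNB1 encodes beta-catenin, which is controlled mostly through protein stability, and its transcript was lower with YC-1 by less than that of TCF7L2 or AXIN2. RBE libraries at 16 h had 4863, 5125 and 4653 normalised counts with YC-1, against 7514, 7669.9 and 7459 with DMSO, a log2 difference of -0.63 ± 0.08. SNU1079 libraries at 16 h had 4623, 4213 and 3821 with YC-1, against 4938, 4829.8 and 5374 with DMSO, a difference of -0.26 ± 0.08. The size of these differences depended on the scaling: with ribosomal protein genes as the scale they were -1.54 in RBE and -0.81 in SNU1079. At 6 h the difference was -0.20 ± 0.08 in RBE and -0.13 ± 0.08 in SNU1079, and in all 4 comparisons the YC-1 libraries lay below the DMSO libraries without overlap. The gene lies at chr3:41194741-41260096 on the plus strand.

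AXIN2, a scaffold of the destruction complex and a widely used readout of canonical Wnt activity, was lower with YC-1 in both lines and at both times, without overlap. In RBE at 16 h it had 5.29, 1.56 and 11.9 normalised counts with YC-1, against 34.5, 37.7 and 45.5 with DMSO, a log2 difference of -2.76 ± 0.49. In RBE at 6 h it had 0, 2.29 and 2.40 with YC-1, against 19.9, 23.0 and 15.1 with DMSO, a difference of -3.17 ± 0.49. AXIN2 and TCF7L2 were the members past the threshold in RBE at 6 h.

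In SNU1079 AXIN2 stood at higher levels. At 16 h it had 21.7, 42.9 and 35.0 with YC-1, against 154, 119.7 and 182 with DMSO, a log2 difference of -2.19 ± 0.49. At 6 h it had 38.7, 37.2 and 58.7 with YC-1, against 109, 127 and 70.4 with DMSO, a difference of -1.16 ± 0.49 that was not past the threshold. AXIN2 lies at chr17:65528563-65561647 on the minus strand.

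NKD1, which binds Dishevelled and, like AXIN2, is induced by the pathway, was lower with YC-1 in RBE at 16 h. RBE libraries at 16 h had 6.71, 3.35 and 6.57 normalised counts with YC-1, against 10.6, 14.7 and 19.3 with DMSO, a log2 difference of -1.29 ± 0.43 that was not past the threshold without YC-1 replicate 2 (-1.02) or DMSO replicate 3 (-1.09). In SNU1079 at 16 h the range was 4.25 to 9.41 with YC-1 and 6.79 to 14.6 with DMSO, a difference of -0.69 ± 0.43 with overlap that missed the threshold. It was -0.25 without the 3 libraries that stood apart, and -1.01 with equal sums and -1.16 on the ribosomal scale, both past the threshold. At 6 h the difference was 0.11 ± 0.43 in RBE and 0.85 ± 0.43 in SNU1079, or 0.56 there without the 3 libraries that stood apart. NKD1 (chr16:50548330-50649249, plus strand) and AXIN2 thus had unlike values at 6 h, when AXIN2 differed by -3.17 in RBE and -1.16 in SNU1079.

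The 2 ligands went opposite ways at 16 h. WNT4, a ligand that acts in the kidney and the female reproductive tract, was higher with YC-1 in both lines. Its values in RBE at 16 h were 14.1, 8.89 and 21.4 normalised counts with YC-1, against 1.64, 5.05 and 0.704 with DMSO, a log2 difference of 2.31 ± 0.67. Its values in SNU1079 at 16 h were 67.7, 100.4 and 87.2 with YC-1, against 33.1, 17.2 and 19.9 with DMSO, a difference of 1.86 ± 0.67 that was not past the threshold without YC-1 replicate 2 (1.73) or 3 (1.83), or without DMSO replicate 2 (1.67) or 3 (1.77). It was also short of the threshold with libraries set to equal sums (1.503) and on the ribosomal scale (1.32), and without the 3 libraries that stood apart (1.997). At 6 h SNU1079 had the reverse, 98.5, 74.4 and 42.3 with YC-1, against 135, 119 and 156 with DMSO, a difference of -0.99 ± 0.67 without overlap. The high YC-1 values at 16 h in SNU1079 thus lay beside DMSO values that were low for that line, and the YC-1 libraries of the 2 times overlapped. In RBE at 6 h WNT4 differed by 1.21 ± 0.67 with overlap, and DMSO replicate 1 (14.8, against 0.652 and 0.347 in the other DMSO replicates) set the size: without it the difference was 2.35. WNT4 lies at chr1:22117305-22143969 on the minus strand.

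WNT5A, the best known ligand of the beta-catenin-independent branch, was lower with YC-1 at 16 h. In RBE at 16 h it had 5.73, 10.2 and 9.09 normalised counts with YC-1, against 33.1, 44.7 and 45.3 with DMSO, a log2 difference of -2.19 ± 0.49. Its values in SNU1079 at 16 h were 8.34, 4.03 and 4.83 with YC-1, against 34.5, 15.7 and 15.2 with DMSO, a difference of -1.71 ± 0.49, or -1.15 and not past the threshold without the 3 libraries that stood apart, of which DMSO replicate 1 was the highest here. At 6 h the differences were -0.16 ± 0.49 in RBE and 0.01 ± 0.49 in SNU1079, and the groups overlapped in both. WNT5A lies at chr3:55465715-55490539 on the minus strand.

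Counted together, 9 of the 10 genes were past an adjusted p of 0.05 (limma, Benjamini-Hochberg over all genes tested) at 16 h in RBE, 2 higher with YC-1 (WNT4 and TCF7) and 7 lower, where 53.9% of all genes tested were called. The groups of all 10 were separate there, as were those of 69.2% of all genes. At 16 h in SNU1079 the count was 8, 3 higher (WNT4, TCF7L1 and TCF7) and 5 lower, with 54.5% of all genes called, and 8 were separate, against 51.3% of all genes. At 6 h in RBE 2 genes were past the threshold, both lower, with 24% of all genes called, and 4 were separate (48.1% of all genes). At 6 h in SNU1079 3 were past it, TCF7L1 and TCF7 higher and TCF7L2 lower, with 28.2% of all genes called, and 8 were separate (40.3% of all genes). These comparisons are those the choice of genes rests on, so the counts describe the choice. TCF7L1 also entered the tests through YC-1 libraries, the side on which it is counted as higher in SNU1079.

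The YC-1 difference at 16 h minus that at 6 h was past the threshold for 5 of the 10 genes in RBE, where 18.2% of all genes were called: TCF7 at 2.48 ± 0.61, and DKK1 (-3.37 ± 0.33), WNT5A (-2.02 ± 0.69), LEF1 (-1.85 ± 0.56) and CTNNB1 (-0.43 ± 0.11) with a negative sign. In SNU1079 it was past the threshold for 2, where 17% of all genes were called: WNT4 (2.85 ± 0.95) and DKK1 (-1.79 ± 0.33). DKK1 was the member past the threshold in both lines. These differences are built from the values that chose the genes, so they describe the choice too. WNT5A and LEF1 in RBE and WNT4 in SNU1079 were not past the threshold in 10, 7 and 9 of 12 fits that left out 1 library, with values of -2.37 to -1.64, -2.38 to -1.54 and 2.52 to 3.12. The YC-1 difference in RBE minus that in SNU1079 was past the threshold at 16 h for 2 genes, with 14.6% of all genes called, CTNNB1 (-0.37 ± 0.11, missing in 5 of 12 fits that left out 1 library, with values of -0.44 to -0.30) and LEF1, whose SNU1079 values were all listed at 0. At 6 h it was past the threshold for TCF7 alone (-2.82 ± 0.61, and -2.66 or -2.59 without a call when RBE DMSO replicate 3 or SNU1079 DMSO replicate 2 was left out), with 1.54% of all genes called. For TCF7L2 it was 0.95 ± 0.84 at 16 h and 0.36 ± 0.84 at 6 h, and the value at 16 h became -0.21 without the 3 libraries that stood apart.

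**Figure D2:**
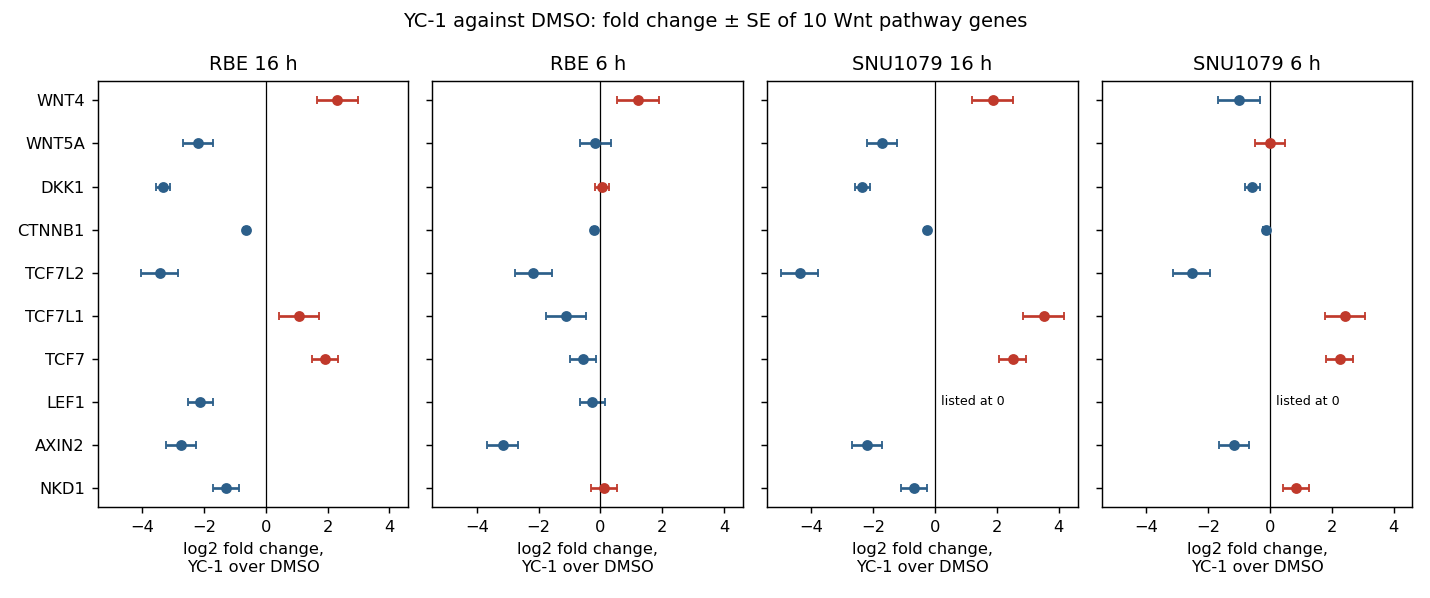
Log2 difference of each gene between YC-1 and DMSO (normalised count + 1), with bars for the standard error of the fit, in RBE and SNU1079 at 16 h and 6 h. Positive values, in red, are higher with YC-1 and negative ones, in blue, lower. At 16 h WNT4, TCF7 and TCF7L1 lie above 0 in both lines and the others below it, except LEF1 in SNU1079, which was listed at 0, from -0.26 for CTNNB1 to -4.39 for TCF7L2, both in SNU1079.

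The DMSO libraries compare the lines without YC-1, a contrast apart from the YC-1 differences that chose the genes, although its libraries are also those that YC-1 was set against. RBE held less DKK1, WNT4 and AXIN2 and more TCF7 and CTNNB1 than SNU1079 at both times. LEF1 entered the tests only through RBE, where it is the higher, and is left out of these counts. At 16 h 7 of the 9 other genes differed between the lines, 4 higher and 3 lower in RBE, where 55.1% of all genes were called (29.3% higher and 25.9% lower), and 7 were separate (63.3% of all genes). At 6 h 6 of the 9 differed, 3 higher and 3 lower in RBE, where 56.4% of all genes were called (29.2% higher and 27.2% lower), and 6 were separate (70% of all genes).

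DKK1 averaged 162 ± 31.6 normalised counts in RBE and 2108 ± 106 in SNU1079 at 16 h with DMSO (SD, n = 3 each), a log2 difference of -3.71 ± 0.23 (SE) with a limma adjusted p of 1.87e-11, and at 6 h the difference was -3.41 (adjusted p 6.8e-11). WNT4 differed by -2.97 at 16 h (limma adjusted p 0.000806) and -5.39 at 6 h (7.02e-07). AXIN2 differed by -1.91 at 16 h (limma adjusted p 0.00219) and -2.32 at 6 h (0.000375). These 3 were lower in every RBE library than in any SNU1079 library of the same time.

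TCF7L2 averaged 587 ± 17.7 in RBE and 178 ± 11.9 in SNU1079 at 16 h with DMSO (SD, n = 3 each), a log2 difference of 1.72 ± 0.60 (limma adjusted p 0.019). At 6 h it averaged 416 ± 91.8 in RBE and 170.2 ± 15.3 in SNU1079, a difference of 1.26 that missed the threshold (limma adjusted p 0.0784), although the groups were separate. The limma adjusted p was 0.00372 without the 3 libraries that stood apart. None of those libraries is in either group compared, so that fit changed the estimated spread and not the difference. TCF7 was higher in RBE by 1.27 at 16 h (limma adjusted p 0.0165) and by 3.22 at 6 h (1.9e-06). The result at 16 h did not hold without RBE DMSO replicate 2 (0.91, adjusted p 0.109) or without SNU1079 DMSO replicate 1 (0.94, adjusted p 0.0976, and 0.0637 without all 3 libraries that stood apart).

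TCF7L1 was higher in RBE at 16 h by 2.29 (limma adjusted p 0.00521), on low means of 8.18 in RBE and 1.01 in SNU1079. At 6 h its difference of 0.85 missed the threshold (limma adjusted p 0.276). CTNNB1 was higher in RBE by 0.58 at 16 h (limma adjusted p 1.6e-06) and by 0.32 at 6 h (0.00127), and the 6 h value was 0.19 (adjusted p 0.169) on the ribosomal scale. WNT5A was higher in RBE at 6 h by 1.37 (limma adjusted p 0.0214), though the groups overlapped, and the result did not hold without RBE DMSO replicate 3 (1.03, adjusted p 0.117) or SNU1079 DMSO replicate 3 (0.75, adjusted p 0.189). At 16 h its difference of 0.97 missed the threshold (0.1), and it was 1.34 (0.0391) without the 3 libraries that stood apart. NKD1 differed by 0.40 at 16 h and 0.43 at 6 h, short of the threshold at both (limma adjusted p 0.441 and 0.408), and by 0.61 at 16 h without the 3 libraries that stood apart. LEF1 averaged 17.3 ± 4.86 and 16.8 ± 3.83 in RBE at 16 h and 6 h, and since every SNU1079 library lists it at 0 no fold is given.

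**Figure D3:**
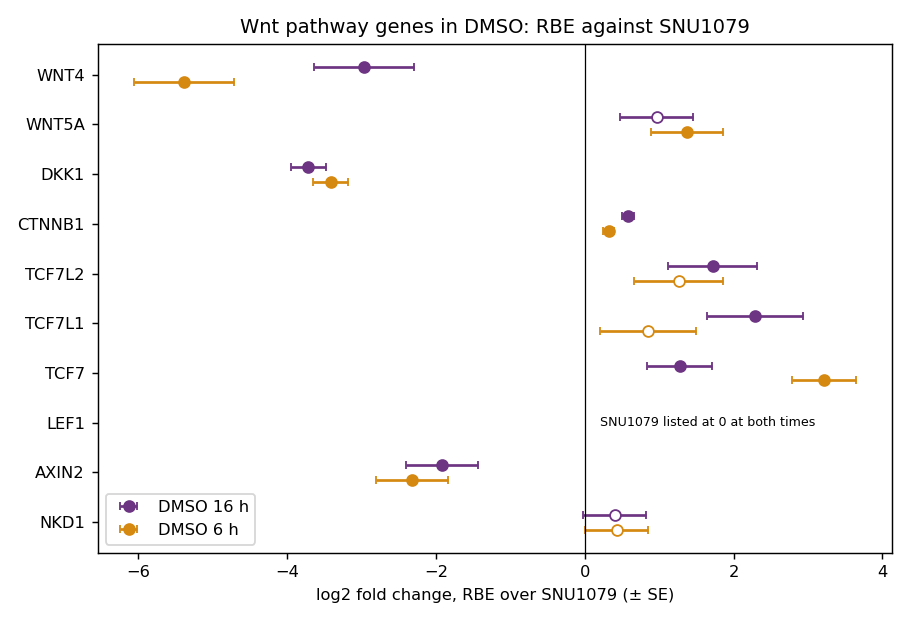
Log2 difference between RBE and SNU1079 in the DMSO libraries, with bars for the standard error, at 16 h (purple) and 6 h (orange). Open points did not pass an adjusted p of 0.05, and LEF1 has no point because it was listed at 0 in SNU1079. DKK1, WNT4 and AXIN2 lie below 0 and the other genes above it.

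Per kilobase of merged exon, the TCF/LEF genes were led by TCF7L2 in both lines. The merged length takes in every annotated exon of a gene, 11927 bases for CTNNB1 and 2206 for DKK1. The transcripts in use may be shorter, by an amount that differs between genes, so an order of genes here holds for this length only. With DMSO at 16 h it stood at 87.2 ± 2.63 normalised counts per kb in RBE and 26.4 ± 1.77 in SNU1079 (SD, n = 3 each). LEF1, TCF7L1 and TCF7 stood at 3.22, 1.85 and 1.56 in RBE, and at 0, 0.229 and 0.557 in SNU1079. CTNNB1 stood at 633 in RBE and 423 in SNU1079, and DKK1 at 73.3 in RBE and 956 in SNU1079, where it was the highest of the 10. By this length CTNNB1 was above DKK1 in RBE and below it in SNU1079 at 16 h. At 6 h in SNU1079 CTNNB1 (515 ± 5.62) and DKK1 (507 ± 34.8) did not differ by it beyond their spread. Whether this order of CTNNB1 and DKK1 holds for the transcripts in use was not tested. The other 4 genes stood at 7.51 (AXIN2), 5.55 (WNT5A), 0.853 (NKD1) and 0.544 (WNT4) in RBE, and at 29.1 (AXIN2), 5.17 (WNT4), 2.95 (WNT5A) and 0.641 (NKD1) in SNU1079.

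Time in DMSO changed 0 of the 10 genes in RBE and 4 in SNU1079. In RBE 0 of the 10 genes differed between 16 h and 6 h by limma (adjusted p 0.974 to 1), where 0.0448% of all genes were called (0.0056% higher and 0.0392% lower at 16 h), and 3 genes (DKK1, TCF7L2 and AXIN2) were separate, against 16.8% of all genes. In SNU1079 4 differed, where 8.57% of all genes were called (3.82% higher and 4.75% lower at 16 h), and 5 were separate, against 27.8% of all genes. DKK1 rose by 0.92 ± 0.23 (limma adjusted p 0.0168) and TCF7 by 1.58 ± 0.43 (0.0251), while WNT4 fell by 2.54 ± 0.67 (0.0206) and CTNNB1 by 0.29 ± 0.08 (0.0228). All 4 calls depended on single libraries. Leaving out 1 of the 6 libraries put WNT4 past the threshold only when DMSO 16 h replicate 1 was the one left out. CTNNB1 held only without DMSO 16 h replicate 3, and TCF7 only without DMSO 16 h replicate 1 or DMSO 6 h replicate 3. DKK1 was lost without DMSO 16 h replicate 2 or without DMSO 6 h replicate 2 or 3, with adjusted p values of 0.0531 to 0.067. The direction held for all 4 in each of these fits.

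Genes whose 8 group means ran most like those of TCF7L2 were NR2C2, a nuclear receptor (Pearson r 0.9953 over the 8 group means of log2 values), ZNF462, a zinc finger protein (0.9936), and KDM6A, a histone demethylase (0.9916). KDM6A averaged 103.8 with YC-1 and 871 with DMSO in RBE at 16 h, and 19.5 with YC-1 and 355 with DMSO in SNU1079 at 16 h. NR2C2, the closest by r, averaged 112 with YC-1 and 270 with DMSO in RBE at 16 h, a smaller change than that of TCF7L2 (55.2 and 587). The correlation takes no account of the size of a change. NR2C2, ZNF462 and KDM6A span 106.0, 150.5 and 239.4 kb, beside 217.4 kb for TCF7L2. The genes most like DKK1 were C1RL (0.994), PSD4 (0.9938) and SLC27A3 (0.9929), which span 19.7, 52.1 and 5.8 kb, beside 3.7 kb for DKK1. All 6 were picked as the closest of the genes tested over 8 points that share their libraries, so the values are descriptions.

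Around these 10 genes, 117 other pathway genes were listed by role, and 90 of them entered the tests. The list was drawn up with earlier results of these data known. Most genes named below were picked as the highest or lowest called of their role, so their p-values follow that choice. More of them fell than rose with YC-1 in every comparison. At 16 h in RBE 48 fell and 9 rose, with a median log2 difference of -0.65, beside a median of 0.02 over all genes tested, of which 26.6% fell and 27.3% rose. At 16 h in SNU1079 38 fell and 20 rose, with a median of -0.34 beside 0.06 over all genes, of which 25.8% fell and 28.7% rose. At 6 h 28 fell and 5 rose in RBE (median -0.22 beside 0 over all genes, of which 12.4% fell and 11.6% rose). At 6 h in SNU1079 29 fell and 10 rose (median -0.22 beside 0.0059 over all genes, of which 14.2% fell and 14% rose). Scaling changed these splits: at 16 h in SNU1079 46 fell and 8 rose when libraries were set to equal sums, and 52 fell and 6 rose on the ribosomal scale. On the ribosomal scale 70 fell and 3 rose in RBE at 16 h, and 38 fell and 3 rose in SNU1079 at 6 h. These scalings moved the median of all genes there by -0.36 and -0.55, and in RBE at 16 h by -0.33 and -0.91. Over all genes the ribosomal scale gave 10031 lower and 1037 higher in RBE at 16 h, where the deposited scale gave 4754 and 4867, and 7510 lower and 2259 higher in SNU1079 at 16 h, where it gave 4611 and 5130. Falls named below kept their sign on both other scales, and rises that did not are named with their values. With equal sums the 16 h rises of WNT3, PORCN, PTK7, TPBG, CELSR3 and CTNNA1 in SNU1079 and of AES in RBE stayed positive (0.05 to 0.59) but missed the threshold. Without the 3 libraries that stood apart, 36 fell and 23 rose in SNU1079 at 16 h and 32 fell and 10 rose at 6 h.

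Receptors and coreceptors mostly fell. Of 14 tested, 11 fell and 0 rose in RBE at 16 h (median -1.08), and 10 fell and 1 rose in SNU1079 at 16 h (median -0.85). For this and each later role, 26.6% of all genes fell and 27.3% rose in RBE at 16 h. In SNU1079 25.8% fell and 28.7% rose. Among roles near these shares were the ligands (33.3% fell in each line) and the R-spondin arm in SNU1079 (33.3% fell). The antagonists in RBE (33.3% rose) were near them too. With 9 or 6 genes tested, such counts say little about those roles. LRP6, the coreceptor that DKK1 binds, had 247, 164 and 166 normalised counts with YC-1 in RBE at 16 h, against 1533, 1581 and 1816 with DMSO, and fell by 3.11 ± 0.27 (limma adjusted p 5.85e-09). FZD2, a Frizzled receptor, fell by 2.52 ± 0.29 in SNU1079 at 16 h (limma adjusted p 2.35e-07), where the pseudokinase receptor PTK7 rose by 0.59 ± 0.16 (0.00479), a rise that was 0.04 on the ribosomal scale. ROR1, a WNT5A receptor, already fell at 6 h, with differences of -2.41 ± 0.28 in RBE (limma adjusted p 1.79e-06) and -1.76 ± 0.28 in SNU1079 (6.48e-05).

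In the R-spondin arm, which raises the number of Frizzled receptors on the cell surface, 3 of 6 fell and 1 rose in RBE at 16 h, and 2 fell and 1 rose in SNU1079. LGR4, an R-spondin receptor, had 253, 305 and 225 normalised counts with YC-1 in RBE at 16 h, against 3784, 3429 and 3710.0 with DMSO, and fell by 3.81 ± 0.22 (limma adjusted p 1.17e-11). SNU1079 libraries at 16 h had 249, 234 and 129 with YC-1, against 951, 1459.7 and 1859.6 with DMSO, and fell by 2.80 ± 0.22 (limma adjusted p 1.13e-09). Every YC-1 library was below every DMSO library. ZNRF3, the ligase that removes Frizzled receptors, fell at 6 h by 2.12 ± 0.19 in RBE (limma adjusted p 4.36e-08) and by 2.13 ± 0.19 in SNU1079 (3.41e-08). RSPO3, an R-spondin ligand, rose in SNU1079 at 6 h by 1.59 ± 0.50 (limma adjusted p 0.0218), a call lost without DMSO replicate 3 (1.41), YC-1 replicate 2 (1.47) or YC-1 replicate 3 (1.504), and on the ribosomal scale (1.36). LGR5, a stem cell marker of the gut that the naming rule left out for its low level, was named after its values were seen. It averaged 35.8 with YC-1 and 0.948 with DMSO in RBE at 16 h, and 10.01 with YC-1 in SNU1079 at 16 h, where DMSO libraries all list it at 0. Among these groups LGR5 could meet the low-value filter only on the YC-1 side, so any count of it as a rise at 16 h is a description.

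Among 9 other ligands tested, 3 fell and 0 rose in RBE at 16 h, and 3 fell and 2 rose in SNU1079. WNT5B, a relative of WNT5A, fell by 2.50 ± 0.25 in RBE at 16 h (limma adjusted p 4.57e-08) and 2.03 ± 0.25 at 6 h (3.94e-06), and it was at or near 0 throughout SNU1079. WNT3 rose at 6 h by 0.44 ± 0.13 in RBE (limma adjusted p 0.0127; 0.37 and 0.0758 without DMSO replicate 2) and by 0.75 ± 0.13 in SNU1079 (0.000109). At 16 h in SNU1079 its rise of 0.46 turned to -0.09 on the ribosomal scale. WNT7B fell by 1.56 ± 0.18 in SNU1079 at 16 h (limma adjusted p 4.01e-07) and WNT7A, listed at 0 in every RBE library, by 1.71 ± 0.32 at 6 h (0.000325). Of the 2 secretion genes, PORCN, which adds the lipid that ligands need, rose in SNU1079 at 16 h by 0.79 ± 0.22 (limma adjusted p 0.00486), and by 0.24 short of the threshold on the ribosomal scale. In RBE at 16 h 1 of the 2 rose.

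Of the 6 other antagonists tested, 2 rose and 1 fell in RBE at 16 h and 1 rose in SNU1079. TPBG, a membrane inhibitor of Wnt signalling, rose by 0.64 ± 0.13 in RBE (limma adjusted p 0.000302) and 0.58 ± 0.13 in SNU1079 (0.000734) at 16 h, but on the ribosomal scale it was -0.27 in RBE and 0.04 in SNU1079. KREMEN1, a DKK1 receptor, fell by 0.84 ± 0.19 in RBE at 16 h (limma adjusted p 0.000976) and by 0.56 ± 0.19 at 6 h (0.0401). The 6 h result did not hold without RBE DMSO replicate 3, YC-1 replicate 2 or YC-1 replicate 3, with values of -0.33, -0.59 and -0.42, nor on the ribosomal scale (-0.63).

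The destruction complex and its relay went both ways. Of 19 tested, 8 fell and 4 rose in RBE at 16 h, and 8 fell and 5 rose in SNU1079. BTRC, the F-box protein that marks beta-catenin for degradation, had 65.3, 60.9 and 85.1 normalised counts with YC-1 in RBE at 16 h, against 749, 783 and 743 with DMSO, and fell by 3.42 ± 0.27 (limma adjusted p 1.28e-09). It fell by 2.99 ± 0.27 in SNU1079 at 16 h (limma adjusted p 1.08e-08). DVL3, a Dishevelled protein that carries the signal from the receptor, had 2442, 2435 and 2346 with YC-1 in RBE at 16 h, against 901, 936 and 1016 with DMSO, and rose by 1.34 ± 0.12 (limma adjusted p 1.3e-08). In SNU1079 at 16 h DVL3 had 3695, 5343 and 4993 with YC-1, against 1542, 1447 and 1369 with DMSO, and rose by 1.67 ± 0.12 (limma adjusted p 6.06e-10). At 6 h DVL3 rose by 0.66 ± 0.12 in RBE (limma adjusted p 0.000407) and by 0.48 ± 0.12 in SNU1079 (0.00545), and the SNU1079 value was 0.26 with no call on the ribosomal scale.

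Among 12 nuclear cofactors, 8 fell and 1 rose in RBE at 16 h, and 6 fell and 3 rose in SNU1079. TLE4, a Groucho corepressor that TCF proteins recruit, fell in both lines at 16 h (-1.59 ± 0.40 in RBE, limma adjusted p 0.00196, and -2.73 ± 0.40 in SNU1079, 6.55e-06) and in SNU1079 at 6 h (-1.65 ± 0.40, 0.00336). CTNNBIP1, an inhibitor of the contact between beta-catenin and TCF, rose by 1.05 ± 0.21 in SNU1079 at 16 h (limma adjusted p 0.000299), or 0.50 short of the threshold on the ribosomal scale. AES, a short Groucho relative, rose by 0.69 ± 0.19 in RBE at 16 h (limma adjusted p 0.00464), but this turned to -0.22 on the ribosomal scale. CTBP2, a corepressor, fell by 0.84 ± 0.09 in RBE at 6 h (limma adjusted p 6.69e-07).

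Of 9 known targets tested, 7 fell and 0 rose in RBE at 16 h, and 3 fell and 3 rose in SNU1079. EPHB2, a guidance receptor of intestinal crypts, fell by 1.99 ± 0.12 in RBE at 16 h (limma adjusted p 2.66e-11) and by 1.49 ± 0.12 at 6 h (1.31e-08). TNFRSF19 fell in SNU1079 at 16 h (-1.24 ± 0.14, limma adjusted p 3.81e-07) and at 6 h (-0.997 ± 0.14, 2.07e-05). MYC averaged 4463 with YC-1 and 3227 with DMSO in RBE at 6 h and rose by 0.47 ± 0.11 (limma adjusted p 0.00365), while at 16 h it averaged 1404 with YC-1 and 3439 with DMSO and fell by 1.29 ± 0.11 (5.12e-09). SOX9, also a bile duct lineage gene and 1 of the 6 cholangiocyte markers above, had 1273, 1201 and 1844 with YC-1 in SNU1079 at 16 h, against 335, 382 and 364 with DMSO, and rose by 1.97 ± 0.14 (limma adjusted p 3.72e-10). It rose by 1.71 ± 0.14 there at 6 h (limma adjusted p 1.35e-08).

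Of 8 planar polarity genes, 5 fell and 0 rose in RBE at 16 h, and 4 fell and 2 rose in SNU1079. VANGL1 fell by 3.29 ± 0.22 in RBE at 16 h (limma adjusted p 1.43e-10) and DAAM1 by 3.34 ± 0.30 in SNU1079 at 16 h (8.01e-09). CELSR3, a large cadherin of this branch, rose by 0.95 ± 0.25 in SNU1079 at 16 h (limma adjusted p 0.00267), and by 0.40 short of the threshold on the ribosomal scale. PRICKLE1 fell by 1.60 ± 0.29 in SNU1079 at 6 h (limma adjusted p 0.000275). Of the 5 junction partners of beta-catenin, 2 fell in RBE and 2 in SNU1079 at 16 h, where 1 rose. CTNND1 (p120-catenin) fell by 1.15 ± 0.08 in RBE at 16 h (limma adjusted p 9.38e-11) and the cadherin CDH2 by 0.72 ± 0.17 in SNU1079 (0.0016). CTNNA1 (alpha-catenin) rose there by 0.41 ± 0.09 (limma adjusted p 0.000617), which turned to -0.14 on the ribosomal scale.

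**Figure D4:**
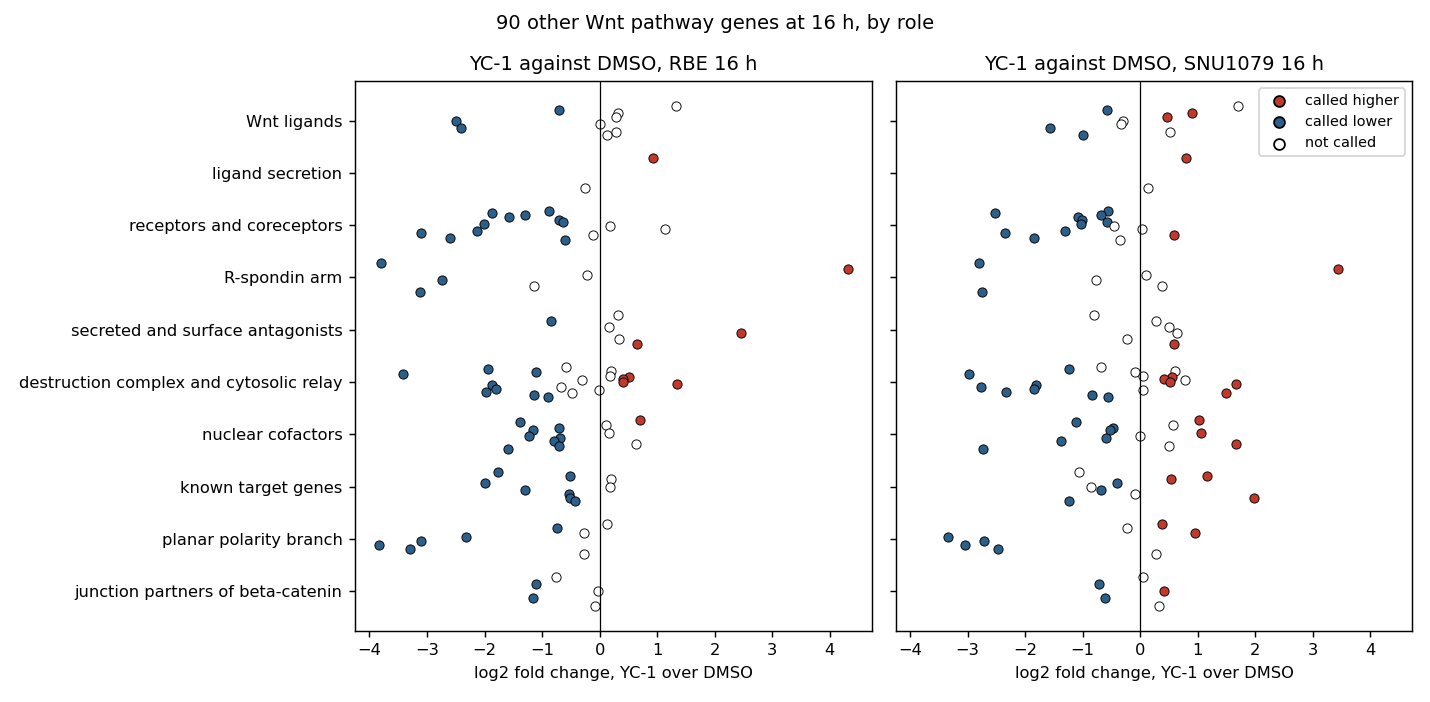
Log2 difference between YC-1 and DMSO of the 90 other pathway genes by role, at 16 h in RBE and SNU1079. Red points rose and blue points fell at an adjusted p of 0.05, and white points passed neither way. Receptors and coreceptors hold 11 blue points and 0 red ones in RBE at 16 h, and 10 blue and 1 red in SNU1079 at 16 h. Of all genes tested, 26.6% fell and 27.3% rose in RBE at 16 h, and 25.8% fell and 28.7% rose in SNU1079.

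In DMSO the lines also differed in this wider list, with 28 genes higher and 34 lower in RBE at 16 h, and 25 higher and 36 lower at 6 h, of 90, beside 29.3% and 25.9% of all genes at 16 h and 29.2% and 27.2% at 6 h. WNT7A, which had no counts in RBE, and WNT5B, which had next to none in SNU1079, entered the tests only through the other line. Their direction between the lines was thus fixed by the filter. Such genes were not left out of these list counts, and how many there are was not determined. All 5 junction partners were higher in RBE at both times, led by CDH1 (E-cadherin), which averaged 643 ± 89.6 in RBE and 4.35 ± 3.98 in SNU1079 at 16 h with DMSO (SD, n = 3 each) and differed by 7.39 ± 0.99 (limma adjusted p 1.94e-06). VANGL2 was higher in RBE by 4.94 ± 0.30 (limma adjusted p 1.03e-11), while RSPO3, an R-spondin (-5.20 ± 0.50, 1.8e-08), and BMP4 (-2.96 ± 0.47, 1.7e-05) were lower, all at 16 h. WNT5B averaged 453 ± 43.0 in RBE and 0.280 ± 0.485 in SNU1079 at 16 h, and AMER1, a destruction complex scaffold, 0.800 ± 1.39 in RBE and 133 ± 14.0 in SNU1079. In RBE 1 list gene of the 90 changed with time in DMSO (0.0448% of all genes did), TNFRSF19, which was lower at 16 h (-1.04 ± 0.14, limma adjusted p 0.00247), or -0.91 and short of the threshold on the ribosomal scale. In SNU1079 7 of the 90 did (7.78%, beside 8.57% of all genes), among them SOX9 (-1.002 ± 0.14, limma adjusted p 9.17e-05) and CCND1 (-1.25 ± 0.15, 1.86e-05) lower and BCL9 (0.56 ± 0.15, 0.0248) higher at 16 h. The BCL9 call was lost without DMSO 16 h replicate 1 (0.40), DMSO 6 h replicate 1 (0.52) or DMSO 6 h replicate 3 (0.52).

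List genes that span over 100 kb had lower YC-1 differences, by median, than shorter ones. Of 27 list genes that span over 100 kb, 21 fell and 1 rose in RBE at 16 h (median -1.87), and 19 fell and 3 rose in SNU1079 at 16 h (median -1.24). Of 25 that span under 20 kb, 12 fell and 6 rose in RBE (median -0.51), and 10 fell and 7 rose in SNU1079 (median 0.04). Of the 38 that span 20 to 100 kb, 15 fell and 2 rose in RBE at 16 h (median -0.38), and 9 fell and 10 rose in SNU1079 (median 0.05). The medians of this middle band were not below those of the short genes at 16 h, so the values do not describe a steady fall with span. At 6 h 18 of the 27 long genes fell and 1 rose in RBE, and 19 fell and 1 rose in SNU1079. Across the 90 genes Spearman's rho between span and log2 difference was -0.38 at 16 h and -0.47 at 6 h in RBE, and -0.29 at 16 h and -0.34 at 6 h in SNU1079. Genes share their libraries and are not independent replicates, so no p is given. Of the 10 genes, TCF7L2 (217.4 kb) lay with the long genes, while TCF7L1 (177.0 kb) was higher with YC-1 in SNU1079 and DKK1 (3.7 kb) had the second lowest value at 16 h in RBE. Of all genes tested, whatever their span, 26.6% fell and 27.3% rose in RBE at 16 h, and 25.8% and 28.7% in SNU1079. At 6 h 12.4% fell and 11.6% rose in RBE, and 14.2% and 14% in SNU1079. No shares were computed for all genes of a given span, so whether the pattern is particular to this list is not known. The part of span in the results was not tested.

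**Figure D5:**
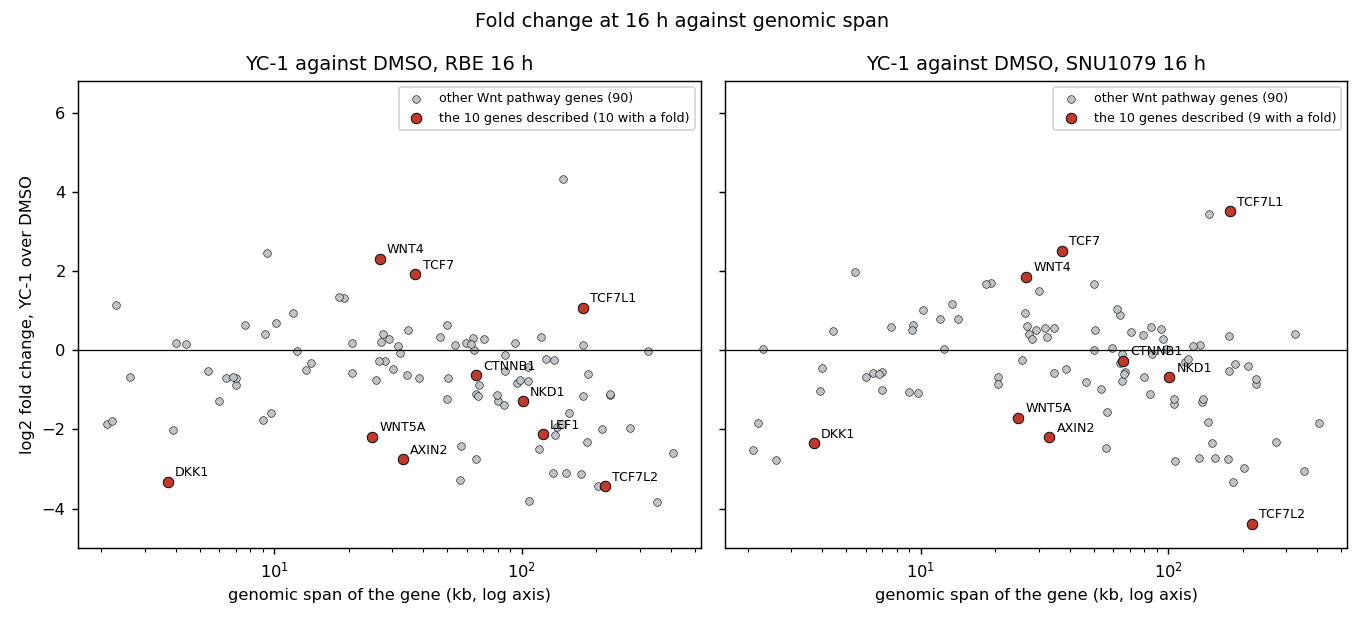
Genomic span in kb (log axis) against the log2 difference between YC-1 and DMSO, at 16 h in RBE and SNU1079. Grey points are the 90 other pathway genes and red points the members, 10 in RBE and 9 in SNU1079, where LEF1 was at 0. Grey points over 100 kb lie mostly below 0, with medians of -1.87 in RBE and -1.24 in SNU1079 at 16 h, and TCF7L1 at 177.0 kb lies above 0 at 16 h.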

How the data were processed

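RNA was extracted with RNeasy Plus kits and libraries were made with TruSeq Stranded mRNA kits, per the labels' protocols. The authors deposited 1 table of normalised counts, a depth-adjusted signal per gene and library, for 24 libraries in 8 groups of 3. STAR, DESeq2 and hg38 are named in the submitters' processing notes, while the counting tool and its strand setting were not given in the sources used here. Whole reads could not be recovered from the values, so the depth is not known exactly and the test used normalised values rather than counts. Of 57820 rows, 24157 were 0 in every library and 17860 had at least 10 in at least 3 libraries.

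Values were analysed as log2(value + 1) with limma 3.58.1 in R 4.3.3 (intensity trend, 8 group means over all libraries, 16 residual degrees of freedom, no block), with two-sided tests and Benjamini-Hochberg adjustment over the 17860 genes. A fold on this scale understates the change of low genes. Tables and plots were made with Python 3.11.15. The fit was first tested on simulated data. Groups were taken from the sample titles. The treatment-time field of the labels gives another assignment (16 h for all DMSO and 6 h for all YC-1 libraries), so the times were also pooled. Other alternatives were pseudocounts of 0.5 and 5, no low-value filter, no intensity trend, libraries set to equal sums or to 79 ribosomal protein genes, fits on the 12 libraries of a line, a replicate block and each library left out in turn, which always left at least 2 per group. A fit without the 3 SNU1079 libraries that stood apart was chosen after seeing the data.

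The 10 genes and the pathway lists were chosen with earlier results of these data known. List genes are named by a rule: for each role and each YC-1 comparison, the called genes with the highest and the lowest log2 difference among those that average at least 100 in the higher group and do not overlap, for the DMSO comparisons the 3 highest and 3 lowest called genes of the whole list, of which some are given, and the 3 genes most like TCF7L2 and DKK1.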

Additional observations from a re-analysis of the deposited data

Results flagged for a closer look

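Of the 31 pathway genes named in the YC-1 comparisons, 22 had a YC-1 difference that itself differed between the times or between the lines, 34 such differences in all, each from an interaction contrast in the limma fit (adjusted p 8.43e-08 to 0.0487, log2 scale). The 31 genes were named for extreme YC-1 differences, which favours such a count, and of all genes tested 18.2% (RBE) and 17% (SNU1079) differed between the times, and 14.6% (16 h) and 1.54% (6 h) between the lines. In RBE the difference at 16 h was below that at 6 h for 11 genes: LGR4 by -2.19, PRICKLE1 by -2.18, VANGL1 by -1.82, LRP6 by -1.76, MYC by -1.76, BTRC by -1.69, WNT7B by -1.31, ZNRF3 by -0.99, SOX9 by -0.84, CTNND1 by -0.68 and EPHB2 by -0.5. It was above for DVL3 by 0.68, but 0.38 short of the threshold with equal sums and -0.16 on the ribosomal scale. In SNU1079 it was below for DAAM1 (-1.91), LGR4 (-1.42), VANGL1 (-1.29) and MYC (-0.94), and above for WNT7A (1.37), CTNNBIP1 (1.34), DVL3 (1.19), AES (0.93) and CTNNA1 (0.57). On the other scales AES (0.62 with equal sums, 0.6 ribosomal), WNT7A (1.07, 1.06) and CTNNA1 (0.26, 0.24) missed the threshold, and WNT7A also without the 3 libraries that stood apart (1.43). On the ribosomal scale the median of this difference over all genes moved by -0.84 in RBE and -0.33 in SNU1079.

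Between the lines, the YC-1 difference of SOX9 in RBE minus that in SNU1079 was -2.49 at 16 h and -1.39 at 6 h. At 16 h it was also negative for EPHB2 (-1.59), CELSR3 (-1.23), KREMEN1 (-1.12), LGR4 (-1), WNT7B (-0.85), PTK7 (-0.7), CTBP2 (-0.63), MYC (-0.61), CTNND1 (-0.54) and CTNNA1 (-0.43), and positive for TNFRSF19 (0.81). WNT7B (-0.82), PTK7 (-0.66) and CTNNA1 (-0.4) missed the threshold with equal sums, TNFRSF19 (0.45) on the ribosomal scale, and LGR4 (-0.61) and PTK7 (-0.47) without the 3 libraries that stood apart. Of the 34 differences 8 missed it in 3 to 8 of 12 fits that left out 1 library, namely EPHB2 in RBE (-0.62 to -0.43), AES (0.75 to 1.19) and WNT7A (1.01 to 1.74) in SNU1079, and between the lines LGR4 (-1.31 to -0.74), CELSR3 (-1.51 to -1.02), WNT7B (-1.05 to -0.71), PTK7 (-0.86 to -0.5) and CTNNA1 (-0.56 to -0.34).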

How the results depend on the processing

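The 10 genes were chosen from their YC-1 differences, so the counts of those differences here describe the choice and do not test it. Across the alternatives no YC-1 difference of the 10 genes that passed the threshold changed its sign. Of 523 values recomputed for such differences 64 missed the threshold, and of 814 for YC-1 differences short of it 36 passed and 37 changed sign. In the DMSO comparisons of these genes, 31 of 242 values missed the threshold, 4 of 285 newly passed, and 9, all time differences short of the threshold, changed sign. Among the last, CTNNB1 in RBE became 0.10 on the ribosomal scale, and leaving out 1 library gave ranges in RBE of -0.073 to 0.0081 for CTNNB1, -0.73 to 0.059 for TCF7, -0.76 to 1.01 for WNT4 and -0.17 to 0.27 for LEF1, and in SNU1079 of -0.0085 to 0.12 for TCF7L2. With the times pooled MYC in RBE was -0.41, and on the ribosomal scale TPBG (-0.27) and AES (-0.22) in RBE and WNT3 (-0.089) and CTNNA1 (-0.14) in SNU1079 were below 0 at 16 h. In a fit of the 12 SNU1079 libraries alone TCF7L2 (-2.53) and TCF7L1 (2.44) missed the threshold at 6 h. Of the counts of called list genes, 182 of 200 stayed within 1.5 times. The count for YC-1 in RBE at 6 h was 33 and became 51 with the times pooled (all genes 4290 and 8282). For 16 h minus 6 h in RBE it was 24, against 63 on the ribosomal scale and 39 with the 12 RBE libraries alone (all genes 3256, 7877 and 6229). In SNU1079 it was 21, against 8 with that line's libraries alone and 32 without the 3 libraries that stood apart (all genes 3036, 1078 and 5343), and 15 to 34 when 1 library was left out, the highest without YC-1 6 h replicate 1. For RBE minus SNU1079 it was 3 at 6 h, against 5 with a pseudocount of 5 and 5 without the 3 libraries (all genes 275, 387 and 1153), and 19 at 16 h, against 36 on the ribosomal scale and 12 to 21 with 1 library left out, the lowest without RBE DMSO 16 h replicate 3. For time in DMSO it was 1 in RBE, against 2 with a pseudocount of 5, 0 on the ribosomal scale, 2 without the trend and 2 with RBE alone. It was 7 in SNU1079, against 2 with that line alone, 19 without the 3 libraries (all genes 1530, 469 and 3272) and 4 to 8 with 1 library left out, the lowest without DMSO 6 h replicate 1 or 3. The cause of these changes was not tested. Deviations of same-numbered replicates from their group means correlated at -0.1469 to 0.188. The labels do not say whether the numbers pair the samples, and these values cannot settle it. With a replicate block the RBE counts were 58 at 16 h and 32 at 6 h (57 and 33 without it) and the SNU1079 counts 58 and 38 (58 and 39). The block gave 26 and 21 for 16 h minus 6 h in RBE and SNU1079, 3 and 19 for the lines at 6 h and 16 h, 1 and 7 for time in DMSO, and 61 and 61 between the lines in DMSO. Values of a few normalised counts, such as those of TCF7L1, AXIN2 in RBE and NKD1, rest on few reads, and their differences are the least precise here.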
